A study of Rattus norvegicus with 4 samples.

Results

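The genes described here encode proteins of the perineuronal net, the dense extracellular matrix that wraps the cell body and proximal dendrites of certain neurons. They are 9 genes chosen by name and function: the lecticans Acan, Bcan, Ncan and Vcan, the link proteins Hapln1, Hapln2 and Hapln4, and the tenascins Tnr and Tnc. All 9 were found among the 15443 named genes of the array, through 14 probes whose RefSeq transcript accession maps to their symbols: 5 genes had 2 probes and 4 had 1.

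A perineuronal net is built on hyaluronan, a long sugar chain made at the cell surface. Lecticans are chondroitin sulphate proteoglycans that bind hyaluronan at one end and tenascins at the other, and link proteins clamp the lectican to the hyaluronan. In the cerebral cortex the nets mostly surround fast-spiking parvalbumin interneurons, and in the cerebellum they are known mainly from the large neurons of the deep nuclei and from Golgi cells. They form late in postnatal life and are known for limiting plasticity.

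RNA of male rats was measured on 1-colour Agilent arrays. Each array is hybridised with Cy3-labelled RNA of a single sample, which binds to probes for known transcripts. The immobility of 106 normal rats had been scored in the forced swimming test, where time spent floating is read as depressive-like behaviour. The depressive groups were rats that showed such behaviour and the control groups were rats with an average score, so that every animal, controls included, had been through the test; 50 rats were killed 1 week after it. Slices 1 mm thick gave the cerebellum (9.8 to 10.8 mm behind the bregma) and the prefrontal cortex (3.2 to 4.2 mm in front of it). Each tissue had a control and a depressive group, which makes 4 groups. Each group is 1 array that carries a pool of RNA from 4 rats, so the spread between rats is hidden in the pool, and no difference within a tissue has a replicate check.

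Levels are given as log2 of the processed intensity minus log2 of the array's 75th percentile, so a value of 0 lies at that percentile. The 75th percentile itself was 4020 (control) and 4370 (depressive) intensity units in cerebellum, and 3116 (control) and 3278 (depressive) in prefrontal cortex. Between 22201 and 23759 probes per array were well above background. The scanner files attached to the depressive cerebellum sample and to the control prefrontal cortex sample each matched the other sample's column of the deposited value table. The r across probes was 0.99998 and 0.99989 respectively, and the table was followed. All 14 cerebellum markers tested (Pcp2, Gabra6, Zic1 and others) were then higher in cerebellum, with a summed linear level of 190 and 177 on its arrays against 5.58 and 5.21 in prefrontal cortex. All 11 cortex markers tested (Tbr1, Neurod6 and others) were lower in cerebellum, with sums of 7.86 and 7.49 against 63.7 and 58.8. These markers do not tell the 2 states apart.

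The net genes separated the tissues in both directions. In a limma fit of tissue and state over 12451 genes, 8 of the 9 members could be tested, and all 8 differed between tissues at a Benjamini-Hochberg adjusted p under 0.05. Of these, 4 were higher in cerebellum (Vcan, Hapln2, Hapln4, Tnc) and 4 were lower (Bcan, Ncan, Hapln1, Tnr). Over all genes tested the same fit called 32.3% higher and 37.4% lower, so a called member was no rarity on these arrays. The median tissue difference was -0.13 on the log2 scale over the 8 members and -0.04 over all genes. The fit treats the control and depressive arrays of a tissue as its repeats and has 1 residual degree of freedom, so its p-values measure the spread between these pools only. If the scanner files were instead taken as attached to the samples, the fit called 0 of 8 members between tissues and all 8 between states. In that reading the control prefrontal cortex array would hold the cerebellum marker sum of 177, and the depressive cerebellum array that of 5.58. The tissue markers thus go against that reading. In bulk tissue, fewer cells of a type and less RNA per cell cannot be told apart.

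**Figure D1:**
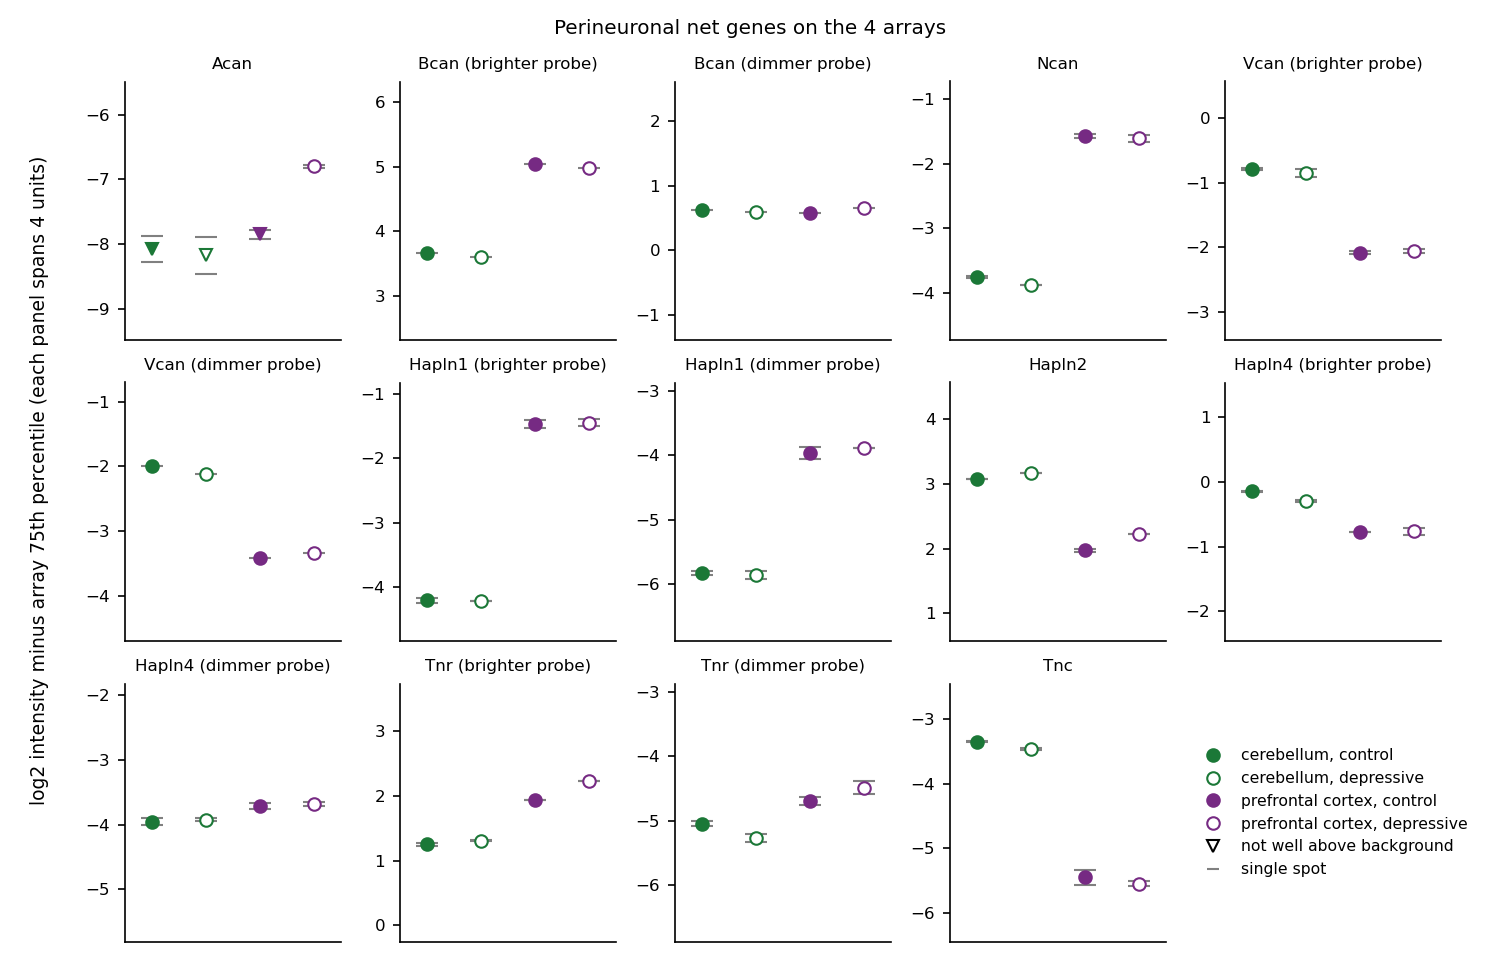
Level of each of the 14 member probes on the 4 arrays, as log2 intensity minus the array's 75th percentile, with 1 panel per probe and the same span of 4 log2 units in each. Filled circles are control and open circles depressive pools, triangles are arrays on which the probe was not well above background, and grey dashes are single spots. In most panels the cerebellum and prefrontal cortex pairs lie apart while the control and depressive points of a tissue lie close together.

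The members with the greatest differences in each direction were Hapln1 and Ncan on the cortical side and Tnc and Vcan on the cerebellar side. Their promoters are shown so that the 2 groups can be read side by side, as the 250 bases before the RefSeq start of the gene in assembly GRCr8, 5′ to 3′ on the gene's strand. For Tnc the start that the window is counted from lies 66 bases inside the gene. Only the 184 bases outside the gene are shown and searched, and distances for Tnc are counted from the gene's edge. Capitals mark every match, on either strand, to 1 of 4 short strings. The first was TATAAA, the core of the box that many regulated promoters carry near their start. The second was CCAAT, bound by nuclear factor Y. The third was GGGCGG, bound by Sp1 and related factors, and the last was CANNTG, known as the E-box. The pair higher in prefrontal cortex comes first.
Hapln1, chr2:22366717-22366966, plus strand: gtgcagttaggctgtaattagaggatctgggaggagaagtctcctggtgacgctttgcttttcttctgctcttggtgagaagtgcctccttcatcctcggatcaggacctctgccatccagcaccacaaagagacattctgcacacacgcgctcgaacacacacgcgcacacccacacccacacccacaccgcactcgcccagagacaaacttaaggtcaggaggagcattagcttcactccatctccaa
Ncan, chr16:19335657-19335906, plus strand: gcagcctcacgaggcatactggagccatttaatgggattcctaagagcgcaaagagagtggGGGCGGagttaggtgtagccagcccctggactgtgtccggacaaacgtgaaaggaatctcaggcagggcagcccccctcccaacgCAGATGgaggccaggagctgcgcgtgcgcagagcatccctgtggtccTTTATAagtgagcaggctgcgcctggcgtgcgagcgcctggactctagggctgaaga
The pair higher in cerebellum follows.
Vcan, chr2:22595956-22596205, minus strand: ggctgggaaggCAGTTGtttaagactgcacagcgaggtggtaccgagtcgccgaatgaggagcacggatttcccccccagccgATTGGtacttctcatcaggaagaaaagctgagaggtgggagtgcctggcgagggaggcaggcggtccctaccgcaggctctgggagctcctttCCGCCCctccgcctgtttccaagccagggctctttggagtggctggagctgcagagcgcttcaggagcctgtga
Tnc, chr5:82476198-82476381, minus strand: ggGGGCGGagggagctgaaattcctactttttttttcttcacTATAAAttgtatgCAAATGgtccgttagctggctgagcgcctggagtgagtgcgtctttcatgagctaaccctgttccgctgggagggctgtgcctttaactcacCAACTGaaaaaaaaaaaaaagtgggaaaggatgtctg
Among 33469 promoter windows of 250 bases, the shares with a match were 12.9% for TATAAA, 34.0% for CCAAT, 30.5% for GGGCGG and 65.5% for the E-box. The Hapln1 window held none of the 4 letter strings. The Ncan window held TATAAA 57 bases before the start, with GGGCGG and an E-box further out. The shorter Tnc window held TATAAA 142 bases before the gene's edge, with GGGCGG and 2 E-boxes. Vcan alone of these 4 held CCAAT, 167 bases before the start, beside GGGCGG and an E-box. No string was held by both windows of one direction and by neither of the other. No marked match overlapped another, and the matches describe the letters only.

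Among the lecticans, Ncan, Bcan and Vcan were measured on all 4 arrays. Ncan (neurocan, a lectican made only in the nervous system and abundant during its development) read -3.76 in control cerebellum, -3.88 in depressive cerebellum, -1.57 in control prefrontal cortex and -1.61 in depressive prefrontal cortex. The cerebellum arrays lay well below both cortical arrays. The fitted difference was -2.23 (SE 0.05, limma, Benjamini-Hochberg adjusted p = 0.00109), which is 4.68-fold lower in cerebellum.

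Bcan (brevican, a major lectican of the adult brain, made largely by astrocytes) read 3.66, 3.60, 5.04 and 4.98 in the same order on its brighter probe. On that probe it was 2.60-fold lower in cerebellum (log2 difference -1.38, SE 0.05, limma, Benjamini-Hochberg adjusted p = 0.00153). The probes of Bcan disagreed. The dimmer probe, designed on another RefSeq transcript (NM_012916 against NM_001033665 for the brighter), read 0.62, 0.60, 0.58 and 0.65. The tissues overlapped there, and the difference was 0.00 (SE 0.06, limma, Benjamini-Hochberg adjusted p = 0.973) in a fit in which each probe stood alone and 68.7% of probes were called. Each Bcan probe has a single spot per array. The tissue difference of this gene therefore holds for 1 of its 2 probes.

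Vcan (versican, the most widely expressed lectican outside the nervous system) ran the other way. Its brighter probe read -0.78 and -0.85 in control and depressive cerebellum and -2.08 and -2.06 in control and depressive prefrontal cortex. Both cerebellum values lay above both cortical values, by 2.39-fold in the fit (log2 difference 1.25, SE 0.05, limma, Benjamini-Hochberg adjusted p = 0.00203). The dimmer Vcan probe gave 1.42 in control and 1.21 in depressive rats, so the probes had the same direction and a like size.

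Acan (aggrecan, the lectican most used to mark mature nets) was near the limit of the array. Its single probe had intensities of 14.9 and 15.2 units in control and depressive cerebellum and 13.5 and 29.4 in control and depressive prefrontal cortex, and was well above background only on the last of these. It was left out of the fit for that reason. In the depressive pools it stood, after scaling, 1.30-fold above a floor on the cerebellum array. That floor is the dimmest spot that the scanner software put well above background there (30.2 units). The ratio of the 2 depressive readings was 2.59, which is no bound, since the cerebellum reading was not well above background. Between the control pools no fold can be given, because neither array measured the gene.

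Among the link proteins, Hapln1 (the link protein of cartilage and of neuronal nets) had the greatest tissue difference of the members by size. It read -4.20 and -4.21 in control and depressive cerebellum against -1.48 and -1.45 in control and depressive prefrontal cortex. That is 6.69-fold lower in cerebellum (log2 difference -2.74, SE 0.05, limma, Benjamini-Hochberg adjusted p = 0.000943). The dimmer probe gave -1.86 in control and -1.97 in depressive rats, in the same direction and smaller.

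Hapln2 (Bral1, a link protein of myelinated axons that sits at nodes of Ranvier) read 3.07 in control cerebellum, 3.17 in depressive cerebellum, 1.97 in control prefrontal cortex and 2.23 in depressive prefrontal cortex. It was 2.03-fold higher in cerebellum (log2 difference 1.02, SE 0.07, limma, Benjamini-Hochberg adjusted p = 0.00354). Oligodendrocyte markers moved the same way: 8 of 10 tested (among them Mog and Mag) were called higher in cerebellum, with a median of 0.94, and their summed level was 191 and 185 on the cerebellum arrays against 150 and 158 on the cortical ones. Their part in the Hapln2 result was not tested.

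Hapln4 (Bral2, a link protein that partners brevican in nets of the hindbrain) read -0.15, -0.29, -0.78 and -0.76 on its brighter probe, in the order used for Bcan. This probe was 1.46-fold higher in cerebellum (log2 difference 0.55, SE 0.07, limma, Benjamini-Hochberg adjusted p = 0.0103). The dimmer probe went the opposite way, with a difference of -0.24 (SE 0.05, limma with each probe alone, Benjamini-Hochberg adjusted p = 0.0292). With the mean of both probes Hapln4 was not called (0.15, limma, Benjamini-Hochberg adjusted p = 0.0933), so its direction depends on the probe.

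Tenascins also ran in opposite directions. Tnc (tenascin-C, a glycoprotein of immature and injured brain that radial and Bergmann glia make) read -3.35 and -3.46 in control and depressive cerebellum and -5.45 and -5.55 in control and depressive prefrontal cortex. It was 4.27-fold higher in cerebellum (log2 difference 2.09, SE 0.05, limma, Benjamini-Hochberg adjusted p = 0.00105), the highest coefficient of the members tested. Bergmann glia markers were mixed: 4 of 6 were called higher in cerebellum, led by Gdf10 at 5.25, and 2 were called lower. Meningeal fibroblast markers were called higher in cerebellum in 10 of 10 cases, with a median of 1.37. The part of these cells in the Tnc and Vcan results was not tested.

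Tnr (tenascin-R, which cross-links lecticans in nets and is made by oligodendrocytes and some neurons) read 1.25, 1.31, 1.94 and 2.23 in that order on its brighter probe. Both cerebellum values were below both cortical values, by 1.75-fold in the fit (log2 difference -0.81, SE 0.08, limma, Benjamini-Hochberg adjusted p = 0.00744). Oligodendrocyte markers went the other way, as given with Hapln2. The dimmer Tnr probe gave -0.35 in control and -0.78 in depressive rats, the same direction with a wider spread.

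**Figure D2:**
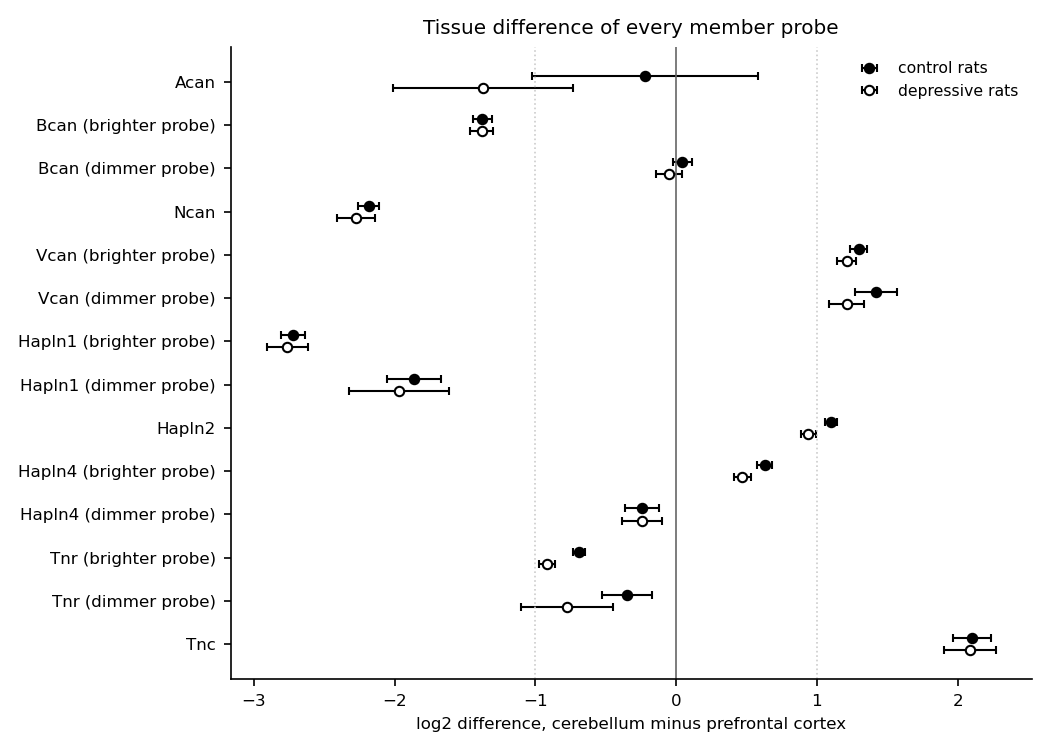
Log2 difference between cerebellum and prefrontal cortex of every member probe in control rats (filled) and depressive rats (open), with the SE between spots at the same brightness as bars. Dotted lines mark 2-fold. Control and depressive values lie near each other for all probes except Acan and the dimmer probe of Tnr. The dimmer probes of Bcan, Hapln1 and Hapln4 lie away from the brighter ones, that of Hapln1 on the same side of 0.

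Taken pair by pair, the size of these differences was much the same in control and depressive rats. In control rats 6 of the 8 members measured were 2-fold or more apart between tissues (Bcan, Ncan, Vcan, Hapln1, Hapln2, Tnc), against 24.4% of all genes measured. In depressive rats 5 of these were, with Hapln2 at 1.92-fold, against 24.3% of genes; Acan would be the sixth on its own signal. The greatest change of a tissue difference between states, Acan aside and on the probes that stand for the genes, was that of Tnr, from -0.69 to -0.92.

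Each lectican gene lies next to a link protein gene in the rat genome, and in assembly GRCr8 no other protein-coding gene stands between them in 4 of 4 pairs: Acan with Hapln3, Bcan with Hapln2, Ncan with Hapln4 and Vcan with Hapln1. In the 3 pairs where both genes are members, the neighbours went opposite ways between tissues. Bcan was lower in cerebellum and Hapln2 higher, Ncan lower and Hapln4 higher, and Vcan higher and Hapln1 lower. The Vcan and Hapln1 pair rests on 2 probes of each gene that share a direction. The other pairs rest on the brighter probe of Bcan and of Hapln4, and on the dimmer probes the Bcan difference is near 0 and Hapln4 runs with Ncan. In the remaining pair, Hapln3 was 4.04-fold lower in cerebellum (log2 difference -2.02, SE 0.07, limma, Benjamini-Hochberg adjusted p = 0.00152), and Acan could not be tested.

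**Figure D3:**
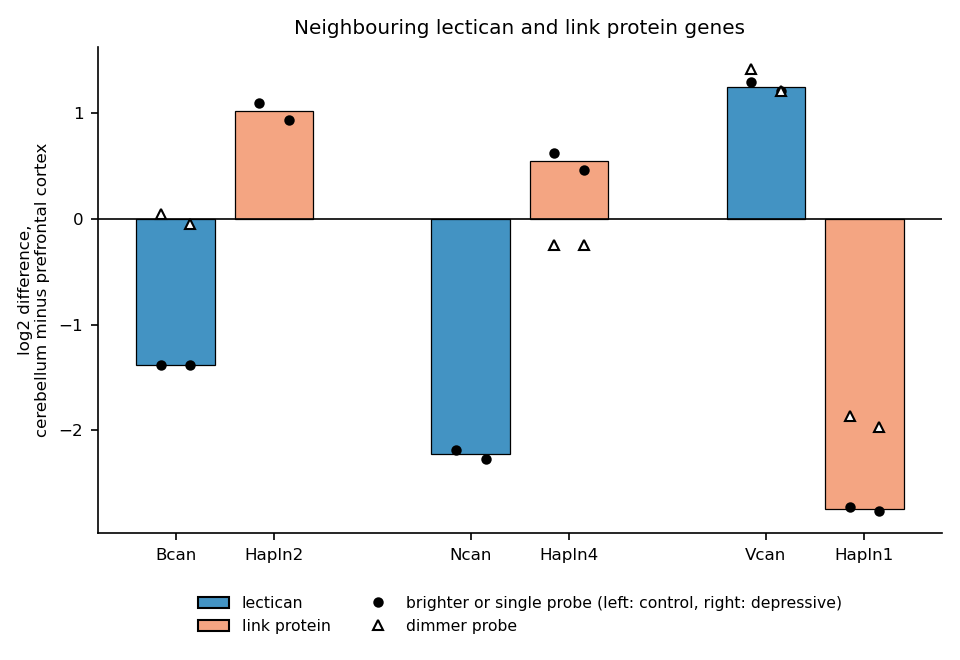
Tissue difference (log2, cerebellum minus prefrontal cortex) of neighbouring lectican and link protein genes. Bars are the mean over control and depressive rats of the brighter or single probe, circles the values in each state and triangles the dimmer probe. The bars of each pair point opposite ways. The triangles of Bcan, Hapln1 and Hapln4 depart from their bars, those of Hapln1 in the same direction as the bar.

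The wider pathway was read from lists of related genes. Of the hyaluronan genes 6 were tested and 2 fell in cerebellum, Cemip2 (a hyaluronidase of the cell surface, -0.95) and Hyal1 (a lysosomal hyaluronidase, -0.61), while 0 rose. Cd44, a hyaluronan receptor, read 0.50 and Hyal3 -0.36, neither called. Of 9 other proteoglycans, link proteins and tenascins tested, 2 were higher and 6 lower in cerebellum. Cspg5 (neuroglycan C) fell by 2.93 and Cspg4 (NG2, a proteoglycan of oligodendrocyte precursors) fell by 1.29, both on the log2 scale, and Dcn (decorin) was 0.99 higher. Tnn, another tenascin, had the largest difference of this list at -4.15, and was not well above background in depressive cerebellum.

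Genes that build and sulphate chondroitin ran both ways, with 5 of 17 tested higher in cerebellum and 6 lower. Csgalnact1, which starts chondroitin chains, was lower by 4.81-fold (log2 difference -2.27), and Chpf2, a chondroitin polymerising factor, read -1.10. Chst7, a chondroitin 6-O-sulphotransferase, was 4.76-fold higher (2.25), and Ust, which sulphates uronic acid, was 1.32 higher on the log2 scale. Among proteases of lecticans and their inhibitors, 7 of 12 tested were higher in cerebellum and 2 lower. Timp4, an inhibitor of metalloproteases, stood at 14.5-fold (3.85), and Adamts1 and Adamts4, which cut lecticans, at 1.22 and 0.98. Timp1, another such inhibitor, stood at 0.99. The 2 lower were Mmp9, a metalloprotease, at -3.89 and Timp2, an inhibitor, at -0.80. Mmp9 was not well above background on either cerebellum array.

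Of 17 receptors and binding partners tested, 6 were higher in cerebellum and 9 lower. Among the latter were Ptprs and Ptprf, receptor phosphatases of the family that binds chondroitin sulphate, at -1.27 and -1.82, and Nptx2 and its receptor Nptxr, pentraxins found at synapses on parvalbumin cells, at -1.80 and -2.16. Of the 6 higher, Otx2 stood at 8.04, but was not well above background in depressive prefrontal cortex. Otx2 also stands among the choroid plexus markers, of which 8 of 8 were called higher in cerebellum (median 5.91). The median tissue difference was -0.26 for the hyaluronan genes, -0.95 for the other proteoglycans, -0.03 for chondroitin sulphate synthesis, 0.32 for proteases and inhibitors and -0.25 for receptors and partners, beside -0.04 over all genes. Parvalbumin interneuron markers did not run one way: 4 of 8 were called higher in cerebellum, Pvalb itself at 2.41, and 3 were called lower, Lhx6 at -3.45. Astrocyte markers gave 4 higher and 5 lower of 10 and oligodendrocyte precursor markers 0 higher and 4 lower of 7. Markers of the deep cerebellar nuclei gave 2 higher and 1 lower of 4, the lower being Tbr1, which also stands among the cortex markers. The part of these cells in the tissue differences was not tested.

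Likeness of pattern was measured as the Euclidean distance over the 4 arrays between levels centred on each gene's mean, among 11622 genes well above background on all 4. For Hapln1 the nearest genes were Sorbs2 (distance 0.03), Cacnb1 (0.05) and Rab40b (0.05). Sorbs2 read -1.71, -1.71, 0.99 and 1.02 in the order used above. For Tnc the nearest were Hr (0.08), Sbk1 (0.08) and Myom1 (0.08), and Hr read -3.31, -3.45, -5.50 and -5.50.

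Between depressive and control rats the members differed little. Of the 8 members tested, 0 were called by the limma fit of state with tissue as a block, where 0% of genes were called. At an unadjusted limma p under 0.05 there were 826 of 12451 genes and 0 of 8 members. With so small a share of genes, 0 of 8 says nothing about the members as a set. In this fit the 2 tissues stand as the repeats of each state, and nothing in the labels says that they came from different rats. Its p-values therefore do not measure the spread between rats. The members' Benjamini-Hochberg adjusted p in limma ran from 0.725 to 0.959, with the smallest over all genes at 0.718. Hbb, a red cell gene, also had 0.718, at 7.52-fold higher in depressive cerebellum and 5.47-fold in depressive prefrontal cortex. A fit that did not call such a change cannot show that the members were unchanged. In the cerebellum, 0 of 8 measured members reached 2-fold, against 1.79% of genes. There, 2 of the 8 lay above 0, where 5042 of 12680 genes measured did. The range was -0.15 (Hapln4) to 0.09 (Hapln2), with a median of -0.06 beside -0.03 over all genes. In the prefrontal cortex 9 members counted as measured, and 6 of them, Acan included, lay above 0, where 5928 of 12572 genes measured did. Their median was 0.03 beside -0.01 over all genes. Acan was the 1 at 2-fold, where 0.931% of genes were. It counted as measured only through the depressive array, where it was higher, so this count says nothing about the members as a set. With 1 pool per group, none of these differences can be tested within a tissue.

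Acan was the 1 member past 2-fold, by the ratio of a measured reading to one not well above background. In prefrontal cortex its spots read -7.79 and -7.92 in control and -6.78 and -6.82 in depressive rats, and the difference of 1.05 had an SE between spots of 0.69. The control array did not measure the gene, so the ratio of the 2 readings, 2.07, is neither a measured fold nor a bound. After scaling, the depressive reading stood 1.54-fold above the dimmest spot well above background on the control array (18.1 units). After normexp background correction, which adds an offset, the difference was 0.13. With that correction, or with the floor at the dimmest spot, 0 of 9 members reached 2-fold.

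In prefrontal cortex Tnr and Hapln2 were next. Tnr was 1.22-fold higher in depressive rats (0.29, SE between spots 0.05), and its dimmer probe gave 0.21 (SE between spots 0.20). Hapln2 was 1.19-fold higher (0.25, SE between spots 0.05). These differences were larger than the spread between spots, which is technical, and 5.27% and 6.44% of genes measured in prefrontal cortex were higher by as much as Tnr and Hapln2 or more. In cerebellum Tnr and Hapln2 gave 0.06 and 0.09, each with an SE between spots of 0.05, and 22.0% and 15.8% of genes were higher by as much. The dimmer Tnr probe gave -0.22 in cerebellum (SE between spots 0.31).

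Markers of oligodendrocytes, which are known to make both proteins, moved with them. All 10 were higher in the depressive than in the control prefrontal cortex pool, from 0.04 (Mbp) to 0.40 (Mog), with a median of 0.33. In cerebellum 4 of 10 were above 0 and the median was -0.04. Their part in the Tnr and Hapln2 results was not tested. Oligodendrocyte precursor markers had medians of 0.05 in prefrontal cortex and 0.02 in cerebellum, with 4 of 7 above 0 in each.

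The other members stayed within 0.15 on the log2 scale in both tissues. Tnc was lower in the depressive pool of both, by -0.11 in cerebellum (SE between spots 0.14) and -0.10 in prefrontal cortex (SE between spots 0.18), which is inside the spread between spots. Ncan gave -0.12 and -0.03, Bcan -0.06 and -0.05, Vcan -0.06 and 0.03 and Hapln1 -0.01 and 0.03, in cerebellum and prefrontal cortex respectively. Hapln4 gave -0.15 in cerebellum (SE between spots 0.05) and 0.01 in prefrontal cortex, and its dimmer probe gave 0.03 in both.

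**Figure D4:**
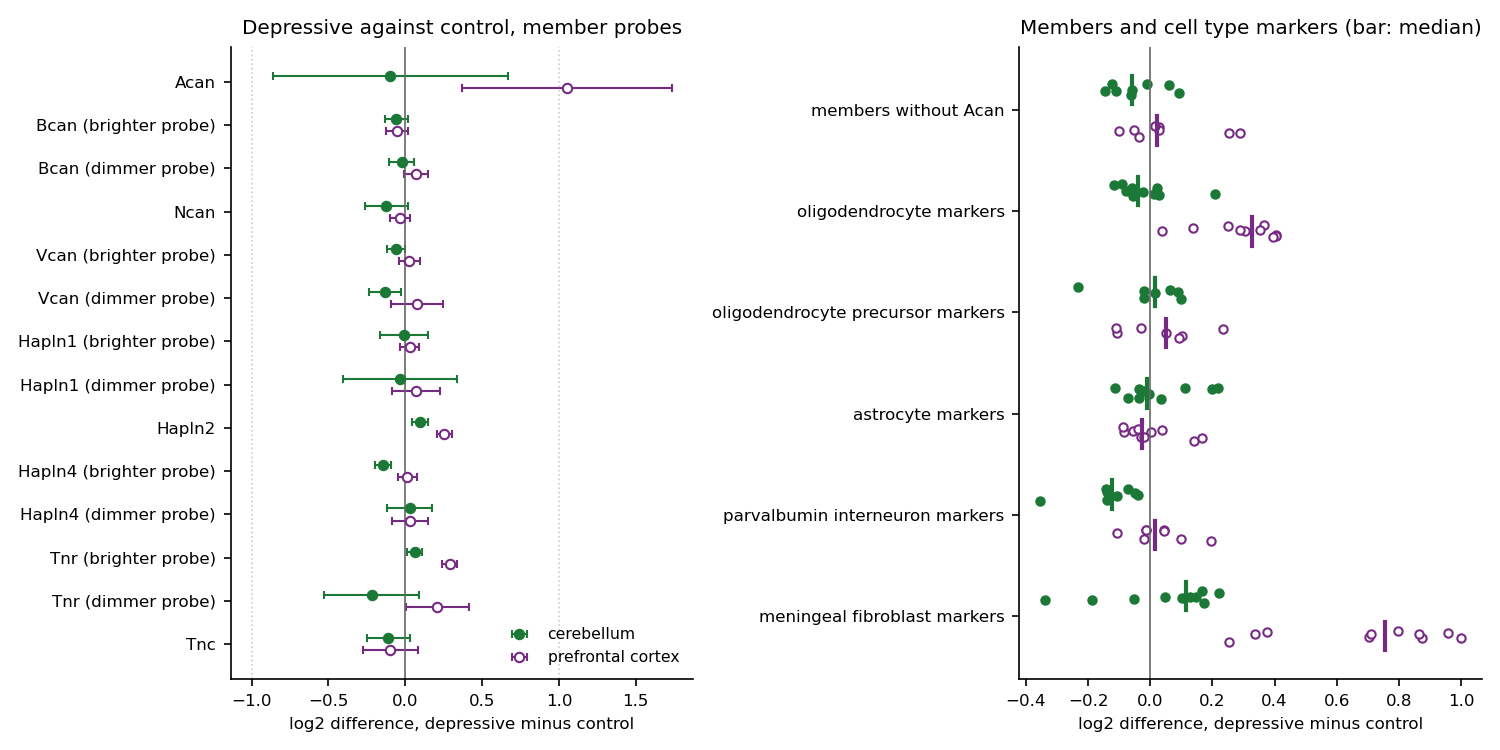
Log2 difference between depressive and control pools. The left panel shows every member probe in cerebellum (filled) and prefrontal cortex (open) with the SE between spots at the same brightness, and dotted lines at 2-fold. The right panel shows the members without Acan beside markers of 5 cell types, 1 point per gene with a bar at the median: in prefrontal cortex all oligodendrocyte and meningeal fibroblast markers lie above 0, while most members lie near it.

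Markers of other cells also differed between the pools. All 10 meningeal fibroblast markers were higher in depressive prefrontal cortex, with a median of 0.75 and a summed level of 20.2 in control and 39.7 in depressive rats, against 94.2 and 102 in cerebellum. Of the choroid plexus markers 7 of 8 were higher in depressive cerebellum (median 0.64) and 3 of 7 in depressive prefrontal cortex (median -1.002), with sums of 185 on both cerebellum arrays and of 9.64 and 3.41 on the control and depressive cortical arrays. The cerebellum markers were lower in most cases: 0 of 14 were above 0 in cerebellum (median -0.11) and 4 of 13 in prefrontal cortex (median -0.16), where 3 of 13 were 2-fold or more apart and Pcp2 gave -1.23 and Gabra6 -1.30. The cortex markers had medians of -0.06 in cerebellum and -0.03 in prefrontal cortex. All 3 red cell markers were 2-fold or more higher in depressive rats in both tissues, with sums of 2.43 and 9.72 in cerebellum and 4.08 and 15.2 in prefrontal cortex. Astrocyte markers had medians of -0.01 in cerebellum and -0.03 in prefrontal cortex, and parvalbumin interneuron markers -0.12 and 0.02; all 8 of the latter were below 0 in cerebellum, where 5042 of 12680 genes measured were above 0. Bergmann glia markers had medians of -0.03 and 0.01 and deep cerebellar nuclei markers 0.39 and -0.08. Their part in the members' values was not tested.

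Related genes were likewise not called between states, with 0 calls in each of the 5 lists. In each list the 2 genes with the greatest mean difference, among those well above background on all 4 arrays, are given here. They included Chst14 (a dermatan sulphotransferase) at -0.34, Adamts1 at 0.30, Adamts4 at 0.29 and Dse (which makes dermatan from chondroitin) at 0.27, Nptxr at -0.26 and Dcn at 0.21. Chst14 gave -0.72 in cerebellum and 0.03 in prefrontal cortex, and Adamts4 gave 0.04 and 0.53. Whether the tissues differ in these was not tested. Hyal3, Bgn (biglycan), Has1 (a hyaluronan synthase) and Sema3a (a repellent cue bound by nets) gave 0.19, 0.18, -0.17 and -0.17.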

How the data were processed

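Per the labels, each array carries Cy3-labelled RNA pooled from 4 rats. The authors deposited scanner files from Agilent Feature Extraction 10.7.1.1, per the file headers, with a background-subtracted processed intensity per spot. All 4 arrays share 1 slide, so no slide batch could be tested. Flagged and control spots were left out. Spots of the same probe were averaged as log2 intensity, and log2 of each array's 75th percentile was subtracted. That percentile was taken over all spots other than control spots, flagged ones included. The deposited value table (linear intensity, scaled by the authors; the choice of scale not given in the sources used here) was an alternative and decided which file is which sample, chosen once the files had been seen; the descriptions of the depressive samples name the other tissue.

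Of 30367 probes, 18355 were named through RefSeq accessions in assembly GRCr8 and 12012 were unnamed. The brightest probe stands for a gene. A probe counted as well above background when at least 50% of its spots had that flag, and a gene when at least 1 of its probes did. Genes well above background on both arrays of at least 1 tissue were tested with limma 3.58.1 in R 4.3.3 (lmFit, eBayes, tissue and state, prior degrees of freedom 1.87) with Benjamini-Hochberg adjustment over all of them. The SE between spots comes from probes with 2 spots in 20 brightness bins per array. The fit was tested on simulated data. Alternatives changed background correction, scaling, probe rule, filter, value source, file links and covariates. Normexp (offset 50) used median signals, since the files hold no mean-signal column. The fit of single probes and the floor at the dimmest flagged spot were added after seeing the data. Promoters are RefSeq sequences.

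Members, lists and markers were chosen with earlier results of these data known. Of the related lists, up to 4 genes with the largest tissue and up to 2 with the largest state difference, among genes that are well above background on every array, are named. Other genes, such as single markers, Hapln3, Tnn, Mmp9, Timp2 and Otx2, were named after their values were seen. Nothing in the labels says that both tissues came from different rats.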

Additional observations from a re-analysis of the deposited data

Results flagged for a closer look

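For 4 members the depressive minus control value had opposite signs in the cerebellum and prefrontal cortex pools. With 1 pool per group the difference between tissues was not tested. As the value in cerebellum minus that in prefrontal cortex on the log2 scale, Acan gave -1.15, but it was well above background on the depressive prefrontal cortex array alone, so that its sign in cerebellum shows no direction. Vcan gave -0.09 and Hapln1 -0.04, from values that lay about within the SE between spots in each tissue, and no direction is shown for them either. Hapln4 gave -0.16 on its brighter probe, from -0.15 in cerebellum (SE between spots 0.05) and 0.01 in prefrontal cortex (SE between spots 0.06).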

How the results depend on the processing

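In all, 467 values were recomputed under 15 alternatives, not counting the files as linked. Of these, 434 kept their direction and side of the threshold or, where untested, moved little beside the spread between spots. The 434 include Acan in prefrontal cortex, which went from 1.05 to 0.13 after normexp, with an SE between spots of 0.69. A further 30 moved by more, 2 lost their call (Bcan on its other probe, Hapln4 with the mean over probes) and 1 reversed. All 8 members tested kept their call between tissues under the other scalings, filters, covariates and the deposited value table, and with any 1 array left out (8 to 8 called; with the mean over probes 7). Hapln4 reversed on its other probe (-0.24), a choice made after seeing the data. Members at 2-fold between states in prefrontal cortex went from 1 to 0 after normexp and with the dimmest flagged spot as floor, the latter also chosen after seeing the data. Leaving out an array leaves 1 lone array in a tissue, which is assumed to vary like the other pair. The median tissue difference over all genes was -0.04 with the 75th percentile, 0.07 with quantile normalization and 0.05 with median scaling, and the split of genes called higher and lower moved from 4023 and 4655 to 4922 and 4022 and to 4692 and 4070. The state fit called 5 genes after normexp and 0 under the other alternatives apart from the files as linked.

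With the scanner files as linked, 0 members were called between tissues and 8 between states; 0 were 2-fold between tissues in control and 1 in depressive rats, and 6 between states in each tissue. Tissue differences that then changed sign included Bcan 0.0565, Ncan 0.0792 and Hapln2 -0.17 in the fit, Bcan 0.0592, Ncan 0.12, Hapln1 0.0091 and Hapln2 -0.0938 in control and Bcan 0.0537, Ncan 0.0349, Vcan -0.0271, Hapln2 -0.25 and Hapln4 -0.0138 in depressive rats. State differences that changed sign included Bcan 1.38, Ncan 2.23 and Hapln2 -1.02 in the fit, Hapln1 2.72 in cerebellum and Vcan -1.21 and Hapln4 -0.47 in prefrontal cortex. Labels are exchanged in that reading, which turns tissue into state. The fit compares tissues with state as a block and states with tissue as a block, and without the block (tissue alone, state alone) 8 members were called between tissues and 0 between states. Precision is limited by 1 array per group, and for Acan by signal near background.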
